A study of Rattus norvegicus with 3 samples.

Results

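The 10 genes described here are Adipoq, Lep, Cfd, Plin1, Cidec, Lipe, Pck1, Slc2a4, Fabp4 and Ucp1, which mature fat cells express and which serve to look for the fat that surrounds an artery in RNA from the whole vessel. They were chosen by name, and their array probes were found through the RefSeq accession of each probe. They are 10 of 15296 genes that could be named on any of the 3 arrays, and 9 of them had a matched probe. Plin1, the perilipin that coats the lipid droplet, had none. The uninjured and day 21 arrays carried 12 probes of these genes and the day 7 array 10.

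Total RNA came from entire common carotid arteries of male Wistar rats, and the vessel was uninjured or had been injured with a balloon 7 or 21 days earlier, a procedure that strips the endothelium and stretches the muscle wall. The comparisons ask how gene expression of the artery differs early and late after the injury. There was 1 array for each of the 3 groups, so no replicate spread could be measured, no test was possible, and each difference given below compares 1 rat artery's array with 1 other. The series' design text mentions a repeat of each time point in other rats, while the data analysed here are 1 array per group. No transgene, drug or diet is named for any group, and neither the age of the rats nor the amount of surrounding fat left on the vessel is given in the labels.

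White fat cells store triglyceride in a droplet coated by perilipin and CIDE proteins, release it by lipolysis, take up glucose through the insulin-regulated transporter GLUT4, and secrete adipokines such as adiponectin, leptin and factor D. Arteries are embedded in fat of this kind, which in rodents can also hold brown adipocytes that burn fat through UCP1. Several of these genes are not exclusive to fat: Fabp4 is also made by macrophages and some endothelium, Slc2a4 by skeletal, cardiac and smooth muscle, and Pck1 by liver and kidney.

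Signals are given in intensity units of the scanner, and scaled levels are the log2 signal minus the 75th percentile of the same array. The uninjured and day 21 arrays were of 1 design and 1 scan, while the day 7 array differed in design, in scan and in the version of the extraction software, so these cannot be told apart from the day 7 condition. Comparisons with day 7 therefore used only the 10583 probes present on both designs, and that of day 21 with uninjured used 40989. A probe was called well above background where at least 50% of its spots carried the scanner software's mark for that, which held for 59.8%, 76.6% and 66.7% of probes at uninjured, day 7 and day 21. Saturation was seen in 0 spots. The value after ± is the SD that replicate spots give for a ratio. This spread is technical only. Probes of the same gene spread more widely than spots, with SDs of 0.58 for day 21 against uninjured and 0.98 for day 7 against uninjured.

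To show the sequence upstream of the genes, 7 of the 10 matched an entry of the RefSeq promoter table of GRCr8. Fabp4, Lipe and Slc2a4 had no entry. Shown here are the 250 bases before the annotated start, 5′ to 3′ on the gene's strand, of Cfd, the gene with an entry that was past 2-fold at both days, and of Adipoq, Pck1 and Lep, which stand for the other adipokines and for triglyceride synthesis. Capitals mark a CCAAT box (CCAAT, or ATTGG where it lies on the other strand), the C/EBP palindrome TTGCGCAA, the cyclic AMP response core ACGTCA or the nuclear receptor core AGGTCA. The TATA box TATAAA was also searched, each motif on both strands.
Cfd: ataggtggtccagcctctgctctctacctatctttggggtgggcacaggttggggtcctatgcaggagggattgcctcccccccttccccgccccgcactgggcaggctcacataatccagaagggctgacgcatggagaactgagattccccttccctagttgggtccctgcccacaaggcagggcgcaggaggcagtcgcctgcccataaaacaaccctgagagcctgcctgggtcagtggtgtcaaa
Adipoq: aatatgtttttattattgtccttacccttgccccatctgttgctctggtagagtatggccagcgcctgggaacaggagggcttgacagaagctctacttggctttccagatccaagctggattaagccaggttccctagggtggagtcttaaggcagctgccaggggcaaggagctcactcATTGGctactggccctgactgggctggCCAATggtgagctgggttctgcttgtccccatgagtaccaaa
Pck1: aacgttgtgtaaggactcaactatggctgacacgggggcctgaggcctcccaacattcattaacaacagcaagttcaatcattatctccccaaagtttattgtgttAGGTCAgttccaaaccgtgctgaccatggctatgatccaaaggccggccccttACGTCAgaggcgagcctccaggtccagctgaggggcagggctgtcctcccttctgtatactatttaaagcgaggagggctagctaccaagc
Lep: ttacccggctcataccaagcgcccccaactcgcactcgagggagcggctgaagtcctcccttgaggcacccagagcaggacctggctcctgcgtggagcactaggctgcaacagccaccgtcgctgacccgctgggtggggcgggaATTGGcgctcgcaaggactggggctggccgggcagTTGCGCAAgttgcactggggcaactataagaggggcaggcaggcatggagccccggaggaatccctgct

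The Cfd sequence lies at chr7:10465497-10465746 on the minus strand and held none of the 5 motifs, and neither did that of Cidec. The Adipoq sequence, at chr11:91240170-91240419 on the minus strand, held CCAAT at 69 to 65 bases before the start on the other strand and at 42 to 38 bases on its own. In the Pck1 sequence, at chr3:182348322-182348571 on the plus strand, AGGTCA stood at 144 to 139 and ACGTCA at 91 to 86 bases before the start. The Lep sequence, at chr4:58626288-58626537 on the plus strand, held CCAAT on the other strand at 104 to 100 bases and TTGCGCAA at 69 to 62 bases. Of the entries not shown, Plin1 held CCAAT and Ucp1 TATAAA. Among 33469 RefSeq promoters of that length, CCAAT was found in 34.0%, AGGTCA in 14.1%, TATAAA in 12.9%, ACGTCA in 6.95% and TTGCGCAA in 0.14%. These are matches of letters only, and no array measured binding or chromatin at these places.

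Across the 3 arrays the 10 genes did not move as 1 group. Fabp4 and Cfd were higher in both injured arteries, and Slc2a4 was lower in both. Pck1 was lower at day 7 by a bound, and at day 21 one of its probes was past 2-fold lower and the brighter one was not. Adipoq and Lipe were within 2-fold at day 21, and Lep, Cidec and Ucp1 had no ratio. Of the 9 genes with a probe, 6 could be read above background at uninjured, 5 at day 7 and 6 at day 21. The plot of levels by probe shows Fabp4, Cfd and Slc2a4 well separated between the arrays, whereas the spot SDs of Cidec and Ucp1 overlap.

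**Figure D1:**
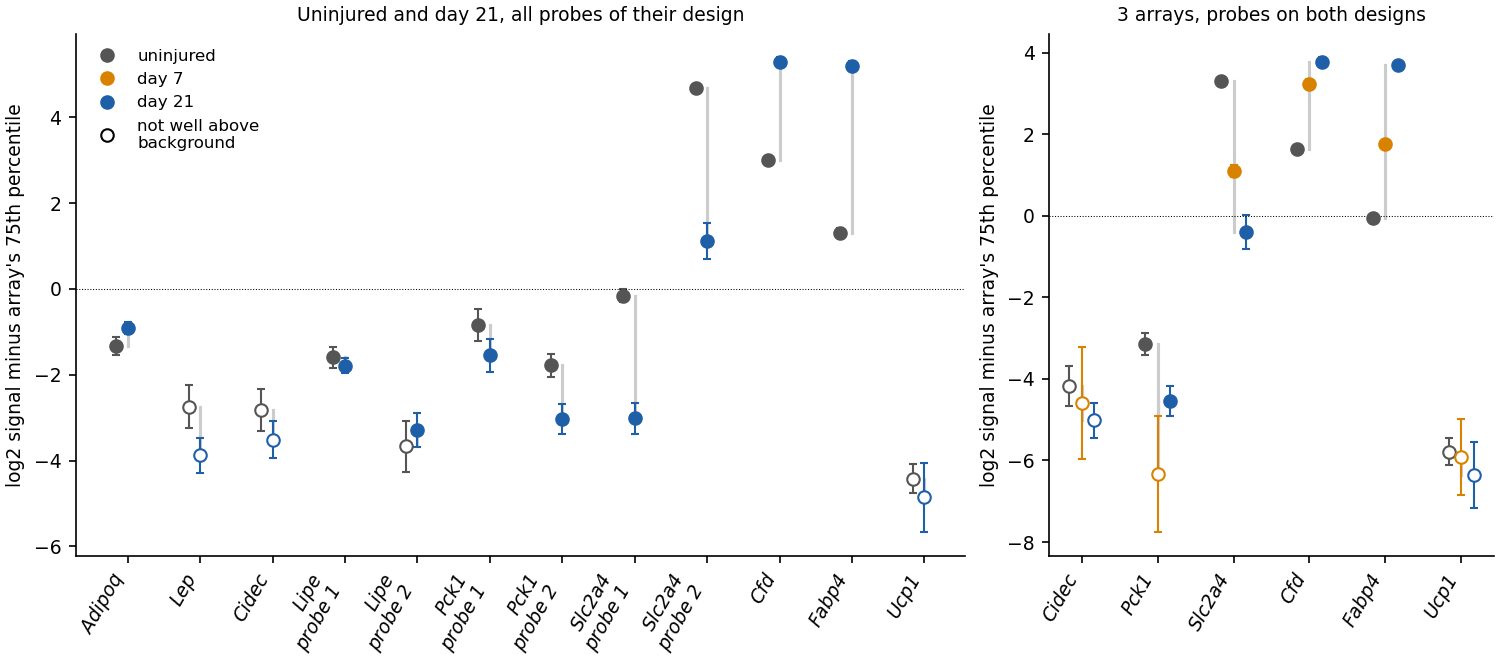
Scaled level (log2 signal minus the array's 75th percentile) of each probe on the uninjured and day 21 arrays (left, all probes of their design) and on all 3 arrays (right, probes on both designs); bars are the SD of replicate spots, and open circles are not well above background. Fabp4 and Cfd stand higher at day 21 than in the uninjured artery and Slc2a4 lower, and heights of different probes are not to be compared with each other. Bars of probes with fewer than 5 spots were interpolated over signal.

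Among the secreted proteins, Cfd encodes complement factor D (adipsin), a serine protease of the alternative complement pathway that fat cells release. Its probe read 396 intensity units in the uninjured artery, 2177 at day 7 and 5269 at day 21. The scaled levels on the shared probes were 1.64, 3.24 and 3.78 in the same order, so that uninjured was lowest and day 21 highest. The day 7 level was 3.03-fold above uninjured (log2 ratio 1.60 ± 0.14), and the day 21 level was 4.88-fold above it on all probes of their design (2.29 ± 0.14). From day 7 to day 21 the log2 ratio was 0.54 ± 0.15, beyond its spot SD and within 2-fold. It was past 2-fold in 3 of 8 alternatives, at 1.0 with median scaling, 1.09 in the authors' deposited table and 1.91 with own-design scaling. With own-design scaling, in which an array's percentile is taken over all of its probes, the ratio of day 7 to uninjured was 0.38 and no longer past 2-fold.

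Adipoq encodes adiponectin, the adipokine most restricted to fat cells. Its probe was dim but well above background on both arrays that carried it, at 19.6 units in the uninjured artery and 72.1 at day 21. Scaled, these were levels of -1.33 and -0.91, and the log2 ratio was 0.43 ± 0.25. The day 21 value was thus within 2-fold of the uninjured one, and with the normexp background the ratio was -0.02. The day 7 array measured Adipoq with another probe, which read 3.51 units and was not well above background.

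Lep encodes leptin, the satiety hormone secreted by fat in proportion to its stores. Its probe, spotted 10 times, read 7.38 units (4.61 to 13.5 over the spots) in the uninjured artery and 9.16 (5.53 to 15.1) at day 21. On each array 2 of the 10 spots were well above background, so the gene counted as not well above background on either and no ratio was drawn. A different Lep probe on the day 7 array, a single spot, read 18.2 units and was well above background. With own-design scaling it stood at -3.52, with an interpolated spot SD of 1.08. The first probe stood at -2.74 in the uninjured artery and -3.88 at day 21. Levels of different probes are not to be compared, so these values show no change of Lep at day 7.

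Of the lipid droplet and lipolysis genes, Lipe encodes hormone-sensitive lipase, which hydrolyses diacylglycerol. Its brighter probe read 16.4 units in the uninjured artery and 39.1 at day 21, a log2 ratio of -0.19 ± 0.30 after scaling. This is smaller than the spot SD, and its sign was kept in 3 of 6 alternatives, over which it ranged from -0.57 to 0.29. The other Lipe probe read 3.88 units, not well above background, and then 13.8, well above it, which sets no bound above 1. At day 7 Lipe had 2 probes of its own, at 23.2 units, well above background, and 3.20 units, not so.

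Cidec encodes the droplet protein FSP27, which lets lipid droplets fuse into the single large droplet of a white fat cell. Its probe was on all 3 arrays and read 6.99, 9.58 and 11.8 units at uninjured, day 7 and day 21, not well above background on any of them. Ucp1, the uncoupling protein of brown fat, read 2.31, 3.83 and 4.65 units, with 0, 1 and 1 of its 10 spots well above background. The lowest signals well above background on the 3 arrays were 8.31, 8.23 and 9.22 units, so Ucp1 lay below them on each array and Cidec below on the uninjured array only. No ratio was drawn for either gene.

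Pck1 encodes the cytosolic phosphoenolpyruvate carboxykinase, which in fat makes the glycerol backbone for triglyceride. The brighter of its probes, with 10 spots, read 27.7 units (17.3 to 38.6) in the uninjured artery and 46.3 (29.2 to 59.7) at day 21. Scaled, the log2 ratio was -0.71 ± 0.54, and the second probe gave -1.25 ± 0.44 from 14.4 and 16.5 units. Both were lower at day 21, the second past 2-fold and the first not. At day 7 the second probe read 2.87 units and was not well above background. As bounds, this put Pck1 3.17-fold or more below the uninjured artery and day 21 1.20-fold or more above day 7. The spot SDs of these ratios, interpolated for single spots, were 1.45 and 1.47 on log2. They come close to the first bound (-1.66) and exceed the second (0.27), so neither is a firm limit. For such a bound the bright level was set, after scaling, against the dim probe's own level or the dimmest readable level of its array, whichever was higher.

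Slc2a4 encodes GLUT4, the glucose transporter that insulin brings to the surface of fat and muscle cells. Its brighter probe, with 10 spots on each array, read 1262 units (1203 to 1340) in the uninjured artery, 496 (428 to 567) at day 7 and 292 (156 to 369) at day 21. In these unscaled units the spots of the 3 arrays did not overlap, although they are repeats on 1 array and not replicates of a condition. Day 7 was 4.62-fold lower than uninjured (log2 ratio -2.21 ± 0.15) and day 21 was 11.8-fold lower (-3.56 ± 0.41). The second probe, on the older design alone, went from 44.2 to 16.7 units, a log2 ratio of -2.86 ± 0.38. Against day 7, day 21 was 2.82-fold lower (-1.50 ± 0.43), and this was -0.13 with own-design scaling.

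Fabp4 encodes the adipocyte fatty acid binding protein aP2, which carries fatty acids in the cytosol. Its probe read 122 units in the uninjured artery, 777 at day 7 and 4980 at day 21, and the scaled levels were -0.06, 1.75 and 3.70. Day 7 was 3.52-fold above uninjured (log2 ratio 1.81 ± 0.15), and day 21 was 15.0-fold above it (3.91 ± 0.16). Day 21 was also 3.85-fold above day 7 (1.94 ± 0.14). The order was thus uninjured, day 7, day 21 with each step beyond the interpolated spot SD. With own-design scaling, the ratio of day 7 to uninjured was 0.59, within 2-fold. In all other alternatives run, Fabp4 stayed past 2-fold in each of the 3 comparisons.

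**Figure D2:**
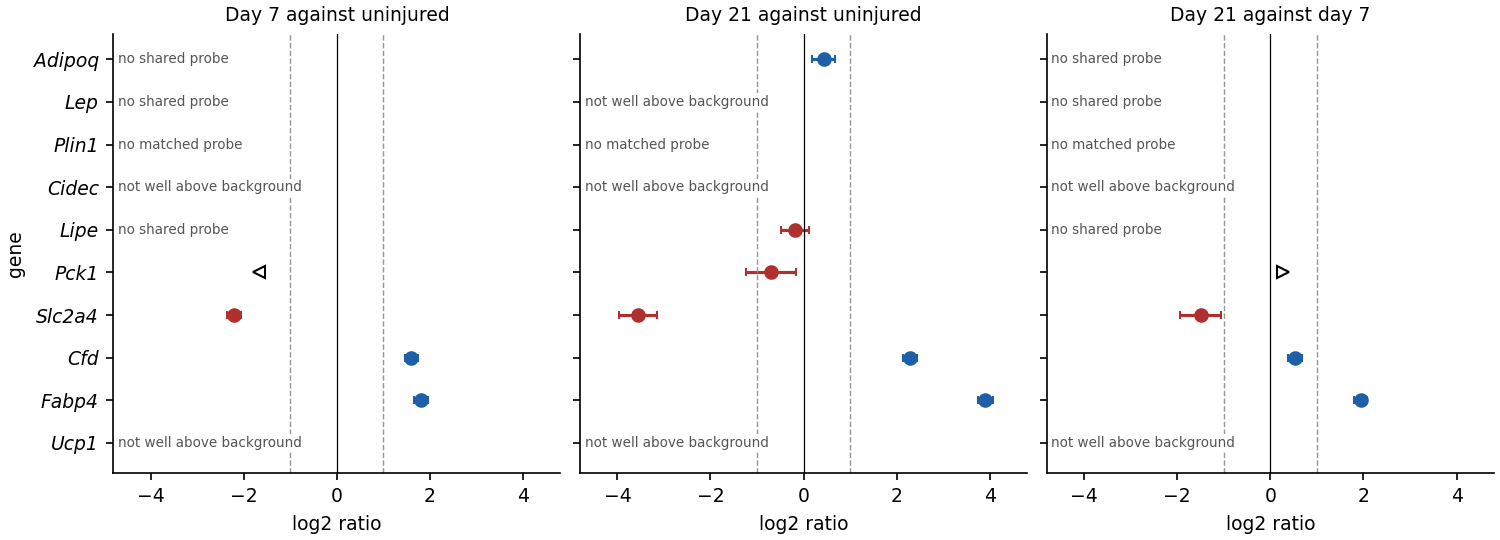
Log2 ratio of each gene in the 3 comparisons (x axis), with the SD of replicate spots as bars, dashed lines at 2-fold, and open triangles for bounds that point away from 0 (Pck1). Slc2a4 lies below -1 in all 3 panels, Fabp4 lies above 1 in all 3, and Cfd lies above 1 against uninjured and at 0.54 between the injured days. Bars of probes with fewer than 5 spots were interpolated over signal.

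Read as counts, of the 6 genes that both arrays could read, 2 were past 2-fold upward at day 21 relative to the uninjured artery and 1 was past it downward, where 9.12% of 9422 genes were that much higher and 13.7% that much lower. The median log2 ratio of the 6 was 0.12, beside -0.20 for all genes. At day 7, 2 of 3 genes were higher and 1 was lower, beside 16.1% and 16.3% of 5262 genes, and the bound of Pck1 adds 1 lower gene, beside 17.7% with bounds included. Between the injured days, 1 of 3 genes was higher at day 21 and 1 lower, beside 10.8% and 19.9% of 5650 genes. Counts over so few genes say nothing about the genes as a set, and 3 more with a probe were too dim to be counted at day 21. The 2 comparisons with uninjured share 1 array, so their ratios are not independent of each other. The histograms of all genes place Slc2a4 in the lower tail and Fabp4 and Cfd in the upper one.

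**Figure D3:**
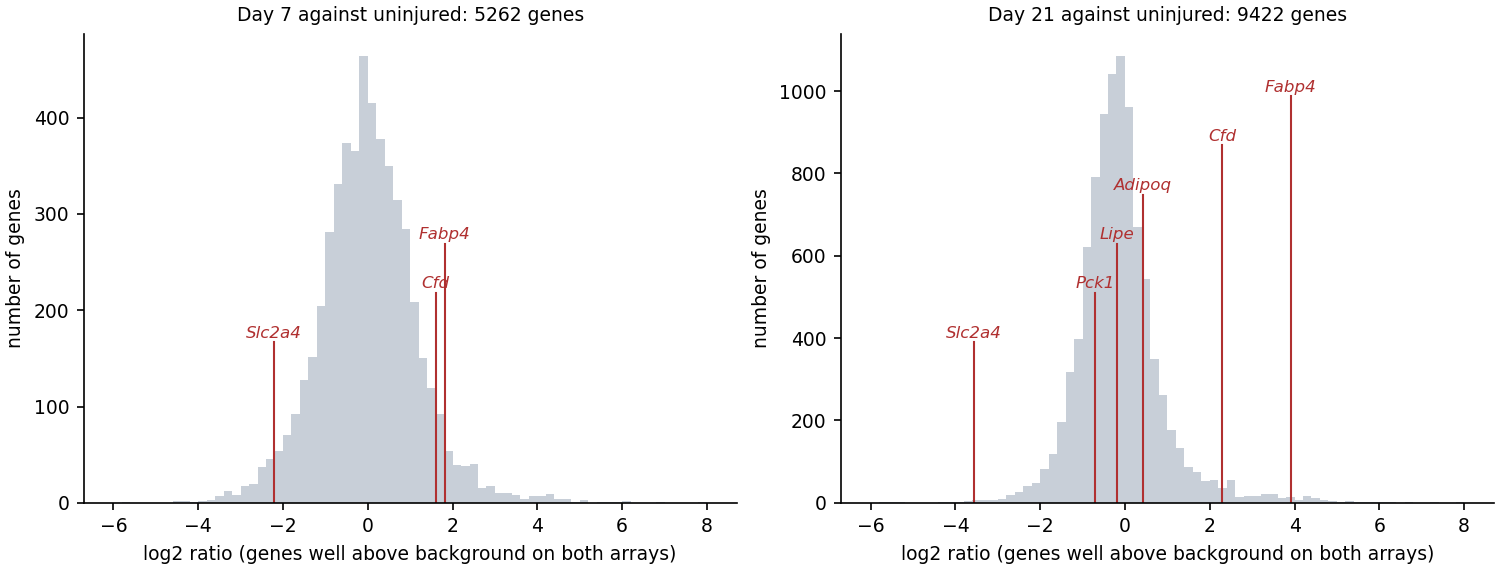
Number of genes (y axis) by log2 ratio (x axis, bins of 0.2) at day 7 (left, 5262 genes) and day 21 (right, 9422 genes) against uninjured, for genes well above background on both arrays, with red lines at the ratios of the adipocyte genes. Adipoq, Lipe and Pck1 lie in the body of the day 21 histogram, and Slc2a4, Cfd and Fabp4 lie in its tails.

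The scaling sets how many genes of the array count as higher. For day 21 against uninjured, 39.9% of all genes past 2-fold were higher, beside 77.1% with the arrays scaled on their medians, 55.6% with quantile normalization, 64.9% with cyclic loess and 74.9% with the normexp background. For day 7 against uninjured the share was 49.7%, beside 26.2% with medians, 20.1% in the authors' deposited table and 5.46% with own-design scaling, which moved the median of all genes to -1.23. The adipocyte genes moved with that shift, as the plot of their ratios by setting shows: Slc2a4 kept its sign and its place past 2-fold against uninjured in all 8 alternatives at both days, and Fabp4 and Cfd kept theirs in all 8 at day 21 and in 7 of 8 at day 7. Adipoq kept its sign in 5 of 6 and Lipe in 3 of 6.

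**Figure D4:**
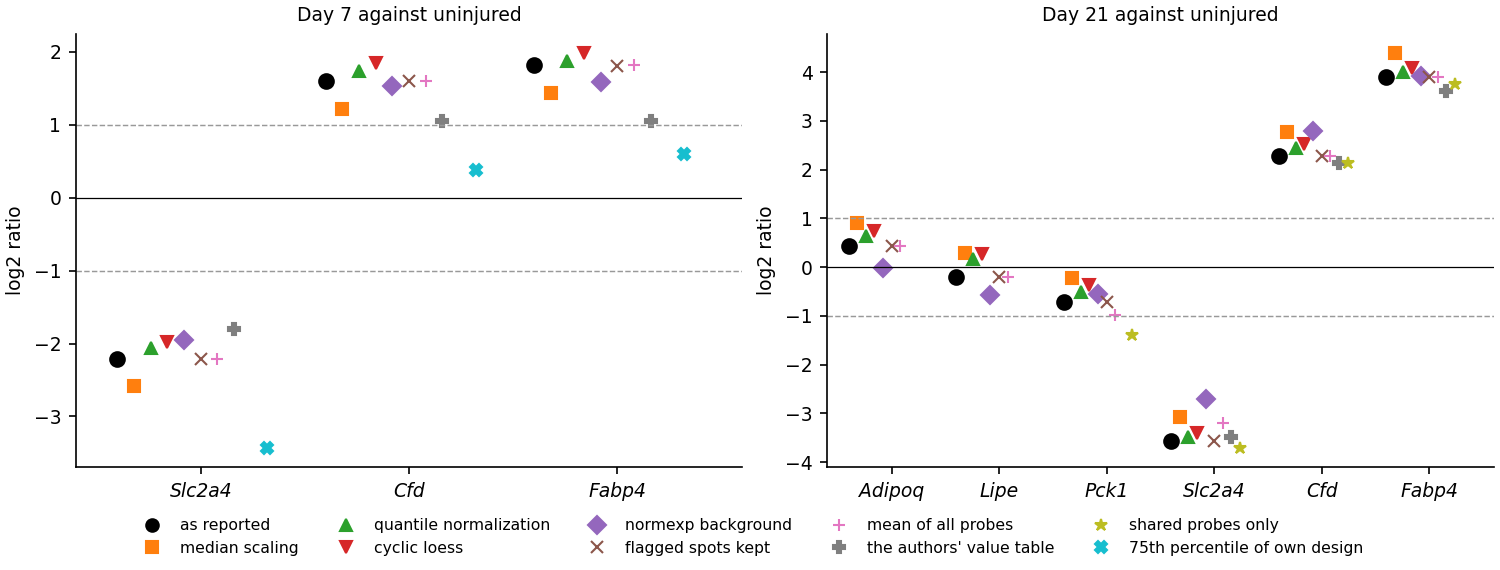
Log2 ratio (y axis) of each adipocyte gene at day 7 (left) and day 21 (right) against uninjured as reported and under each processing alternative that gave it a value, with dashed lines at 2-fold. Slc2a4 lies below -1 under every setting drawn, while own-design scaling brings Cfd to 0.38 and Fabp4 to 0.59 at day 7.

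The authors' deposited table, on a log2 scale, held 3 of the genes and ordered the arrays in the same way. Fabp4 stood there at 8.55, 9.61 and 12.17 for uninjured, day 7 and day 21, and Cfd at 10.12, 11.17 and 12.26. Slc2a4 stood at 10.73, 8.92 and 7.23.

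Genes that act with these in fat cells were read as lists of their pathways. Their counts stand beside those of all genes. At day 21, 9.12% of all genes were at least 2-fold higher and 13.7% lower, with a median of -0.20. At day 7 the shares were 16.1% and 16.3%, with a median of -0.01. Counts over lists this small say nothing about a pathway as a set. Genes of fatty acid uptake and binding, to which Fabp4 belongs by function, held Fabp5, the highest ratio among these pathway lists at both days. At day 21, 4 of 11 were at least 2-fold higher and 0 lower, with a median of 0.20 (-0.44 to 0.68 over the alternatives). Fabp5, the epidermal fatty acid binding protein, went from 242 to 12899 units (log2 ratio 4.29 ± 0.15), Lpl, the lipase that frees fatty acids from lipoproteins, from 15.9 to 433 (3.31 ± 0.27), and Cd36, a fatty acid receptor, from 79.6 to 1745 (3.0 ± 0.15). In the same list the acyl-CoA ligase Acsl1 was at -0.76 ± 0.14 and the acyl-CoA binding protein Dbi at -0.77 ± 0.13, both within 2-fold. At day 7, 2 of 8 were higher and 1 was lower, with Fabp5 at 4.39 ± 0.15, Gpihbp1, which anchors Lpl in capillaries, at 1.79 ± 0.17, and Lpl, on another probe, at least 3.33-fold higher. Day 7 values of these and the following lists depend on the scaling. With own-design scaling Fabp5 was at 3.17, Adipor2 at 0.98, Gpihbp1 at 0.57, Dgat2 at 0.53 and G0s2 at 0.37. Only the first of these was past 2-fold. Some day 21 values of these lists also depend on the processing. Over the alternatives Dgat2 fell as far as 0.16, Mgll 0.38 and Agpat2 0.47, and Irs2 rose as far as -0.04. Acaca was past 2-fold in 3 of 6, whereas Fabp5, Lpl and Cd36 stayed past it in all.

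Lipolysis and lipid droplet genes other than the 10 went both ways. At day 21, 3 of 7 were higher and 1 lower, with a median of 0.68 that ranged from -0.33 to 1.87 over the alternatives. G0s2, an inhibitor of the triglyceride lipase Pnpla2, went from 67.4 to 822 units (2.16 ± 0.17), and the lipases Mgll and Pnpla2 were at 1.65 ± 0.25 and 0.68 ± 0.21. Cidea, a droplet protein related to Cidec and typical of brown fat, went the other way, from 450 to 233 units (-2.40 ± 0.15). At day 7, 1 of 4 was higher, G0s2 at 1.59 ± 0.16, and 1 lower, Cidea at -2.05 ± 0.11.

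Fatty acid synthesis and esterification genes had 2 of 12 higher and 2 lower at day 21, with a median of 0.02. The desaturase Scd read 4.59 units at uninjured, not well above background, and 275 at day 21, at least 12.1-fold higher. Dgat2, which makes triglyceride from diacylglycerol, was at 1.94 ± 0.19 and the acyltransferase Agpat2 at 1.27 ± 0.24, while Acaca, the first enzyme of fatty acid synthesis, was at -1.21 ± 0.13. At day 7, 3 of 8 were higher and 0 lower, with Dgat2 at 1.75 ± 0.17, and over the alternatives 0 to 3 were higher and 0 to 4 lower. Adipogenic transcription factors had 2 of 9 higher and 1 lower at day 21, with Cebpd at 1.99 ± 0.13 and Rxrg at -1.55 ± 0.25. Pparg, the master regulator of fat cell formation, read 9.27 units in the uninjured artery, not well above background, and 67.9 at day 21, at least 2.68-fold higher. Scd and Pparg lie outside the naming rule and were chosen after their values were seen. At day 7, 1 of 4 factors was higher and 2 were lower, with the lowest ratio at Klf4 (-2.98 ± 0.11).

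Secreted adipocyte proteins other than the 10 had 1 of 9 higher and 3 lower at day 21, with a median of -0.54 that stayed below 0 in every alternative (-0.89 to -0.07). Lcn2, lipocalin 2, was at 3.53 ± 0.25, while C1qtnf12 (adipolin) went from 1987 to 631 units (-3.10 ± 0.14) and Rbp4 (the retinol carrier) was at -2.03 ± 0.16. At day 7, 1 of 5 was higher and 3 were lower, with C1qtnf12 at -2.55 ± 0.12. Among adipokine and insulin receptors and their signalling proteins, 2 of 9 were higher and 2 lower at day 21, with the adiponectin receptor Adipor2 at 1.97 ± 0.19 and the insulin receptor substrates Irs1 and Irs2 at -1.65 ± 0.25 and -1.55 ± 0.15. Adipor2 was also higher at day 7, at 2.20 ± 0.17.

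The thermogenic programme, of which Ucp1 is the defining gene, had 0 of 10 higher and 2 lower at day 21, with a median of -0.61. The lower genes were Cidea, also counted among the droplet genes, and Cpt1b (-1.48 ± 0.25), past 2-fold in 3 of 8 alternatives. Of its 18 genes with a probe, 7 were not well above background on either array. Ucp2, a relative of Ucp1 found in many cells, was at 0.85 ± 0.21 at day 21 and 2.46 ± 0.20 at day 7. At day 7, 2 of 6 genes were higher, Ucp2 and Otop1 (1.46 ± 0.24), and 2 lower, Cidea and Acot2 (-1.59 ± 0.23). Other markers of mature adipocytes had 2 of 10 higher and 0 lower at day 21, with a median of -0.13: the glutathione transferase Mgst1 at 3.50 ± 0.18 and haptoglobin (Hp) at 1.90 ± 0.19. At day 7, 2 of 5 were higher and 0 lower. Preadipocyte and progenitor genes had 2 of 9 higher at day 21, Ccn5 at 2.57 ± 0.15 and Pdgfra at 1.40 ± 0.15, and 4 lower. The lowest were Cd34 at -1.99 ± 0.49, Gata2 at -1.76 ± 0.22 and Gata3 at -1.06 ± 0.45. At day 7, 1 of 4 was higher and 1 lower.

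**Figure D5:**
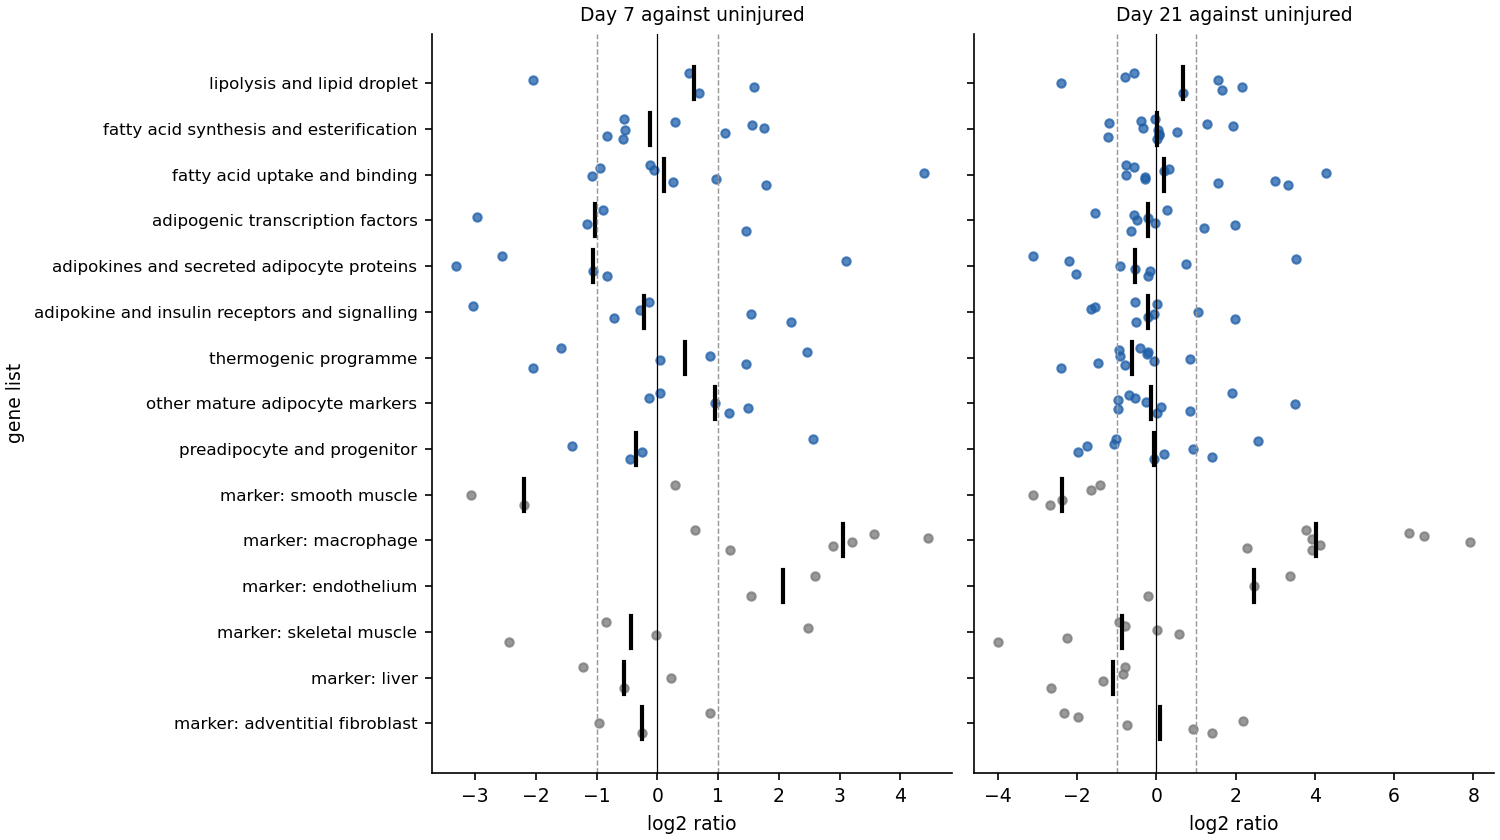
Log2 ratio (x axis) of each gene well above background on both arrays, by list (y axis), at day 7 (left) and day 21 (right) against uninjured; blue points are adipocyte pathway genes, grey points are cell type markers, black bars are list medians and dashed lines mark 2-fold. The pathway lists spread to both sides of 0, the macrophage markers lie to the right and the smooth muscle markers to the left, apart from Lmod1 at day 7.

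The labelled tissue was checked against its markers, and other cell types were read beside the adipocyte genes. The smooth muscle marker Tagln read 19225 units in the uninjured artery, 7601 at day 7 and 10018 at day 21, and Myh11 read 4751 and 2014 on the arrays that carried it. The summed level of the 5 smooth muscle markers read, in multiples of the array's 75th percentile, was 576 in the uninjured artery and 117 at day 21, with 5 of 5 at least 2-fold lower and a median of -2.39. At day 7 it went from 161 to 34.4 over 3 markers, with 2 of 3 lower.

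Macrophage markers were higher in the injured arteries, as were Fabp4 and Cfd. At day 21, 8 of 8 were at least 2-fold higher with a median of 4.02, and the summed level of all 9 went from 27.2 to 1346. Lyz2 (lysozyme) was at 7.92 ± 0.15, Gpnmb at 6.75 ± 0.17 and the receptor Trem2 at 6.37 ± 0.16, and Cd163 was not well above background on either array. At day 7, 5 of 6 were higher with a median of 3.05, and the summed level of the 6 went from 3.46 to 36.0, then to 136 at day 21 on the same probes. Of the endothelial markers, some went the same way. Their summed level went from 2.92 to 14.5 at day 21, with 2 of 3 higher and a median of 2.46. Kdr was at 2.46 ± 0.17 and Emcn at 3.37 ± 0.32, whereas Cdh5 was at -0.21 ± 0.22. At day 7 the summed level went from 0.88 to 2.97. The part of these cells in the Fabp4 and Cfd values was not tested.

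Some skeletal muscle markers were lower at day 21, as was Slc2a4, and these markers were readable in the uninjured artery. At day 21 their summed level went from 25.3 to 11.6, with 2 of 6 lower and bounds lower for 2 more, and a median of -0.87. Ckm, the muscle creatine kinase, went from 473 to 80.2 units (-4.01 ± 0.16) and Acta1 from 141 to 80.4 (-2.26 ± 0.18), whereas the troponin Tnni2 was at 0.01 ± 0.15. At day 7 their summed level went from 5.70 to 4.81, with 1 of 4 higher and 1 lower. Liver markers were read because liver makes Pck1. Their summed level was 4.39 in the uninjured artery and 1.19 at day 21, with 0 of 4 higher, 2 lower and bounds lower for 2 more. Alb, albumin, read 120 units in the uninjured artery and 52.0 at day 21. At day 7 the summed level of 6 markers went from 1.61 to 0.46, with 0 of 3 higher, 1 lower and bounds lower for 2 more. By such a bound Alb was at least 22.8-fold lower at day 7 (log2 -4.51). The spot SD of this ratio was 1.37 on log2, so the size of the bound is not a firm limit. The part of smooth and skeletal muscle in the Slc2a4 values, and of liver RNA in those of Pck1, was not tested. In RNA from the whole artery, fewer cells of a type and less RNA per cell cannot be told apart.

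The label of adipocyte genes fits these values only in part. Adiponectin was readable at 19.6 and 72.1 units on the uninjured and day 21 arrays and not at day 7, where another probe was used. Leptin was not well above background on those arrays. At day 7 a single spot of another probe was, which allows no comparison between the arrays. Cidec and Ucp1 were not well above background on any array. Cfd, Fabp4 and Slc2a4 were the bright genes, at 396, 122 and 1262 units in the uninjured artery, and they did not go the same way after injury. The 10 genes are therefore described as adipocyte genes by name and not as a measure of fat on these vessels.

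Finally, 5171 genes well above background on all 3 arrays with a shared probe were ranked by the likeness of their profile. The adipocyte genes and genes with placeholder names were left out. Likeness was the Euclidean distance of scaled log2 values over the 3 arrays after centring each gene. Nearest to the median profile of Fabp4, Cfd and Slc2a4 were Csf1r at a distance of 0.23, Rassf5 at 0.24, Aacs at 0.25, and Trps1 and Lpxn at 0.26. Slc2a4 went the other way from Fabp4 and Cfd, so this median is the profile of none of them. In a ranking for each gene, added after the data were seen, Slc2a4 was nearest to Arpp21 (0.05), Spock2 (0.10), Alpl (0.23) and Des (0.24). Cfd was nearest to Ceacam4 (0.07), She (0.09), G0s2 (0.10) and Sigirr (0.10). Fabp4 was nearest to Dab2 (0.14), Arhgap18 (0.16) and Lipa (0.18). With 3 arrays many genes share any profile, so these names are a description only.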

How the data were processed

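Each of the 3 carotid artery RNAs was hybridised, Cy3-labelled, to a one-colour Agilent array, per the labels. The deposited spot intensity values are processed signals, background-subtracted and detrended within each array, written by Agilent Feature Extraction 10.7.3.1 (uninjured, day 21) and 11.0.1.1 (day 7), as the file headers state. Only 10.7.3.1 is named in the submitters' processing notes. A table deposited by the authors gives log2 values for 9260 probes (medians 7.64, 7.62 and 7.64); for its normalization, the sources used here give no method.

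Control spots and outlier spots (0.242%, 1.46% and 0.274% of gene spots) were left out, repeated spots were averaged as log2 values, and the array's 75th percentile was subtracted, over all probes for day 21 against uninjured and over the 10583 shared probes otherwise. These percentiles were 49.5 and 135 units on the full design, and 127, 230 and 384 on the shared probes. Where a probe had fewer than 5 spots its SD was interpolated over signal. Probes carry accessions and no symbols, so names came from RefSeq (GRCr8) by unversioned accession, as did promoters; 42.7% of probes of the older design and 75.9% of shared probes matched. A gene was read at its brightest probe. Named were all 10 genes, any gene of a list with up to 8 measured, otherwise the 3 highest and 3 lowest, and the 5 nearest profiles to the median profile of the genes; not every gene so selected is reported here. The genes and lists were chosen with earlier results of these data known.

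With 1 array a group no model was fitted, and 2-fold was the threshold. Alternatives were median scaling, quantile normalization, cyclic loess and normexp background (offset 50, on the median signal in place of the planned mean signal; R 4.3.3, limma 3.58.1), outlier spots kept, the mean of all probes, the authors' table, no filter on dim probes, a 3-fold threshold, shared probes only, and each array's own design for scaling. Calculations used Python 3.11.15 and were tested on simulated data. Array numbers limit the precision, and the intensity values carry no count of reads.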

Additional observations from a re-analysis of the deposited data

How the results depend on the processing

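No paired analysis was possible because each group had 1 array, and for the same reason no replicate could be left out. In the comparison of day 21 with uninjured, 2 genes stayed at least 2-fold higher in every alternative. The number lower was 2 with no filter on dim probes and 2 on shared probes only, and 1 otherwise. The median log2 ratio of the measured genes, 0.12, became 0.60 with median scaling, 0.40 with quantile normalization, 0.51 with cyclic loess, -0.29 with normexp, 2.14 in the authors' deposited table (3 genes) and -0.44 with no filter. In that of day 7 with uninjured, the median of 1.60 was 1.22 with median scaling, 1.85 with cyclic loess, 1.05 in the authors' deposited table, 0.38 with own-design scaling, and reversed to -0.27 with no filter, where 2 more dim genes and Pck1 enter. The number higher was 0 with own-design scaling and the number lower 2 with no filter. Between day 7 and day 21, the number higher was 2 with median scaling, in the authors' deposited table, with no filter and with own-design scaling, and the number lower was 0 at 3-fold and with own-design scaling. The median of 0.54 was 1.0 with median scaling, 0.84 with normexp, 1.09 in the table, 0.055 with no filter and 1.91 with own-design scaling.

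Over all genes, the 859 higher and 1293 lower at day 21 against uninjured were 1645 and 489 with median scaling and 789 and 265 with normexp, and the 847 and 858 at day 7 were 181 and 3131 with own-design scaling. Between the injured days, 35.1% of genes past 2-fold were higher, beside 66.0% with median scaling, 86.4% in the authors' deposited table and 95.3% with own-design scaling. Signal over background limits Lep, Cidec and Ucp1, which have no ratio. Of the 10 genes, 3 (Adipoq, Lep and Lipe) have probes but no shared one, and Plin1 has no matched probe.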
